A study of Mus musculus with 4 samples.

Results

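The transcripts described here are the ones that differed between the testis library of mouse embryos exposed to ibuprofen together with acetaminophen (IBU+ACE) and the library of embryos labelled as exposed to acetaminophen alone (ACE+ACE). They are all 232 rows of the authors' deposited table for this pair of libraries, out of 726 rows and 382 different transcripts in 6 tables. Both libraries came from wildtype gonads of the outbred strain CD1 at E13.5 (days of embryonic life), cut free of the mesonephros, the neighbouring embryonic kidney. A Control library (treatment labelled none) and a library for aspirin with acetaminophen (ASP+ACE), of the same strain, genotype and stage, supply the values given beside them. Each group is 1 library, so there is no replicate check, every difference is between libraries and no test was run. Doses, days of exposure and the number of embryos per library are not stated in the labels.

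At this stage the male germ cells, enclosed in cords by Sertoli cells, give up their pluripotency programme and begin to build the machinery that methylates DNA and silences transposons. Nodal signalling is active in these germ cells for a short time; the ligand acts through activin receptors, the EGF-CFC co-receptor Cripto and the transcription factor Foxh1, and it induces its own inhibitors, the Lefty proteins. Ibuprofen inhibits the cyclooxygenases, which make prostaglandins, and prostaglandin D2 is one of the signals that support Sertoli cell fate through Sox9. Acetaminophen also lowers prostaglandin synthesis, and much of it is broken down in the liver.

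Levels are FPKM, read fragments scaled by transcript length and by the size of the library, as the authors deposited them. Log2 differences were recomputed from the 2 values, and a positive one means a higher level in IBU+ACE. Where 4 FPKM values of a gene follow each other, they are those of ACE+ACE, IBU+ACE, ASP+ACE and Control, and 3 values are those of ACE+ACE, IBU+ACE and Control. Where only 2 are given, they are those of ACE+ACE and IBU+ACE. Values of Control and ASP+ACE could be read only where another table lists the transcript, so libraries named as lowest or highest are so among values chosen by those calls. All rows of the authors' deposited table were called by them with a q-value of 0.0310, so that number does not rank transcripts, and for a gene missing from the table it is unknown whether it was tested. Which cells of the gonad a library held cannot be checked on whole marker lists, since only called transcripts are in the tables. In RNA from a whole organ, fewer cells of a type and less RNA per cell cannot be told apart.

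Most of the transcripts were higher in IBU+ACE. The authors' deposited table has 207 higher (89.2% of its rows) and 25 lower (10.8%), and any group of genes has to be read against that split. The 180 higher transcripts with a value above 0 in both libraries had a median log2 difference of 1.82 (3.53-fold) and ran from 0.67 to 5.59. For the 20 lower ones the median was -1.29 (2.44-fold), with a range of -2.60 to -0.59. An absolute log2 difference of at least 1 was reached by 170 transcripts (73.3% of the rows), 155 higher (66.8%) and 15 lower (6.47%). Levels were low, with a median of 0.560 FPKM in ACE+ACE and 1.90 FPKM in IBU+ACE.

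The smallest listed difference depended on the level. Among transcripts whose higher value was under 1 FPKM no absolute log2 difference was below 1.07, against 0.68 for those from 1 to 10 FPKM and 0.59 for those at 10 FPKM or more. The median absolute log2 difference fell across the same 3 classes from 2.1 to 1.76 and 1.11. In FPKM the widest gap was that of the embryonic globin gene Hbb-y, with a difference of -793 FPKM. Afp was 78.4 FPKM higher and Alb 61.2 FPKM higher.

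**Figure D1:**
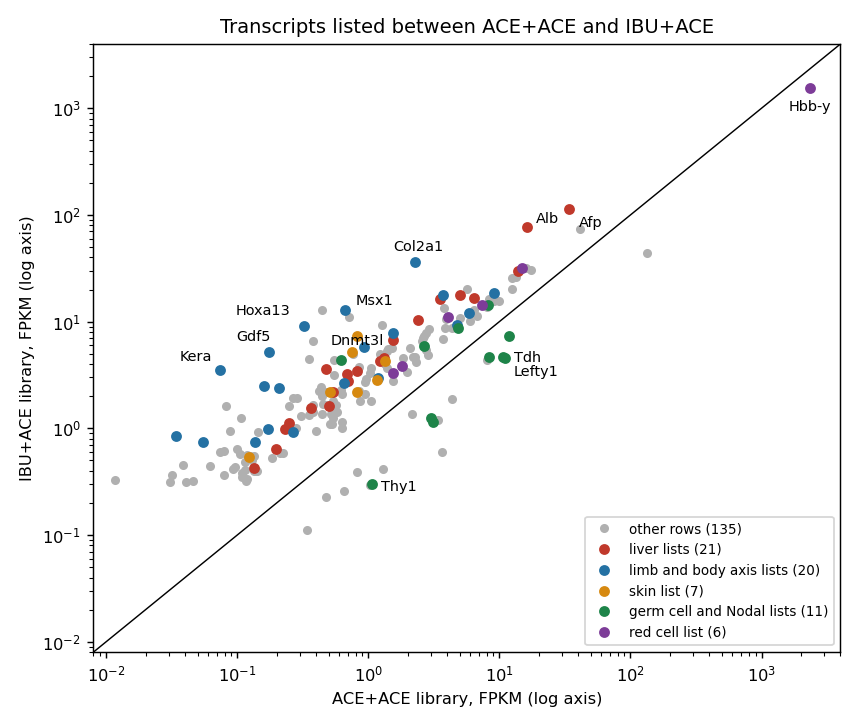
Each point is 1 of the 200 listed transcripts with values above 0 in both libraries, at its FPKM in ACE+ACE (horizontal, log axis) and IBU+ACE (vertical, log axis), and the line marks equal values. Most points lie above the line, Kera of the limb and body axis lists (blue) farthest from it. The green points below the line belong to the Nodal, pluripotency and germ cell lists.

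The Nodal pathway genes in the table were all lower in IBU+ACE. Of 20 genes of a Nodal signalling list 3 were listed, 0 higher and 3 lower, and their median log2 difference was -1.28 beside 1.70 over all 200 transcripts with a fold. Lefty1 (chromosome 1, 180935022 to 180938400), a secreted inhibitor that binds Nodal and its co-receptor, had 11.04 FPKM in ACE+ACE and 4.53 FPKM in IBU+ACE, beside 8.41 FPKM for ASP+ACE and 9.37 FPKM for Control. The IBU+ACE library was thus the low one and the other 3 lay close together. From ACE+ACE to IBU+ACE the log2 difference of Lefty1 was -1.29. Its neighbour Lefty2 (chromosome 1, 180893108 to 180899103), a second inhibitor of the same kind, had 11.7 FPKM in ACE+ACE against 7.37 in IBU+ACE, a smaller log2 difference of -0.67. Foxh1 (chromosome 15, 76668284 to 76669948), the DNA-binding partner through which Smad2 and Smad3 act on Nodal targets, had 3.03 and 1.24 FPKM. The other 17 genes of the list, the ligand Nodal and the co-receptor gene Tdgf1 among them, were not in the table.

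The listed genes of the pluripotency list went the same way. Of 26 genes 3 were listed, all lower, with a median log2 difference of -1.43. The rest of that list was not in the table. Tdh (chromosome 14, 63492347 to 63509092), threonine dehydrogenase, an enzyme on which mouse pluripotent cells rely, read 10.6 FPKM in ACE+ACE and 4.69 FPKM in IBU+ACE. Its deposited locus also covers a second annotated gene. L1td1 (chromosome 4, 98726716 to 98739243), an RNA-binding protein of pluripotent cells derived from a LINE-1 element, read 3.10 and 1.15 FPKM. Thy1, a surface glycoprotein that is not specific to pluripotent cells, read 1.07 and 0.300 FPKM. It had the largest log2 difference of the 3 genes (-1.84). No Control value of these 3 genes, nor of Lefty2 and Foxh1, could be read from the other tables.

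Of 43 genes of male germ cell differentiation 5 were listed, 4 higher and 1 lower. These are too few to set the list apart from the 89.2% higher over all rows. Dnmt3l (chromosome 10, 78030022 to 78063622), the cofactor that directs de novo DNA methylation in fetal male germ cells, had 0.619 FPKM in ACE+ACE and 4.41 FPKM in IBU+ACE, beside 1.24 FPKM for Control. Here ACE+ACE was the lowest of the 3 libraries and IBU+ACE the highest, with a log2 difference of 2.83 between them and of 1.83 between IBU+ACE and Control. The deposited locus of Dnmt3l also spans Aire. Tdrd9 (chromosome 12, 111971484 to 112068854, with Rd3l inside the locus), a helicase of the piRNA pathway, had 2.64 FPKM in ACE+ACE and 5.94 FPKM in IBU+ACE, beside 2.37 FPKM for Control. Morc1 (chromosome 16, 48431237 to 48630905), needed to silence transposons in male germ cells, had 8.24, 14.2 and 8.84 FPKM in the same order. Control and ACE+ACE were close for both genes and IBU+ACE stood above them. Tex101 (chromosome 7, 24668007 to 24676675), a germ cell surface protein, had 4.83 FPKM in ACE+ACE and 8.67 FPKM in IBU+ACE. The lower gene was Sohlh2 (chromosome 3, 55182028 to 55209957), a transcription factor of early spermatogonia and oocytes, at 8.37 FPKM in ACE+ACE and 4.71 FPKM in IBU+ACE, beside 8.302 FPKM for Control. None of 20 meiosis genes and none of 29 mitotic cycle genes was in the table, and of 66 histone genes it has Hist1h4i alone, at 41.3 FPKM in ACE+ACE and 74.6 FPKM in IBU+ACE. Histone genes have near-identical copies, which makes that value uncertain.

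Of the somatic cells of the testis little was listed. Sox9 (chromosome 11, 112782224 to 112787760), which sets Sertoli cell fate and is equally a regulator of cartilage, was alone listed of 36 genes of the Sertoli list. It measured 5.97 FPKM in ACE+ACE and 10.04 FPKM in IBU+ACE, beside 5.22 FPKM for ASP+ACE and 5.98 FPKM for Control, so only IBU+ACE was apart. Vcam1, an adhesion molecule of the interstitium, alone listed of 28 Leydig cell genes, measured 4.33 FPKM in ACE+ACE and 8.64 FPKM in IBU+ACE, with 3.98 FPKM for ASP+ACE. None of the 24 genes of prostaglandin synthesis, transport and reception, the route the drugs act on, was listed, and neither was any of 28 genes of drug metabolism and oxidative stress, 22 immediate early and heat shock genes, 24 endothelial and macrophage genes or 28 nerve and neural crest genes.

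**Figure D2:**
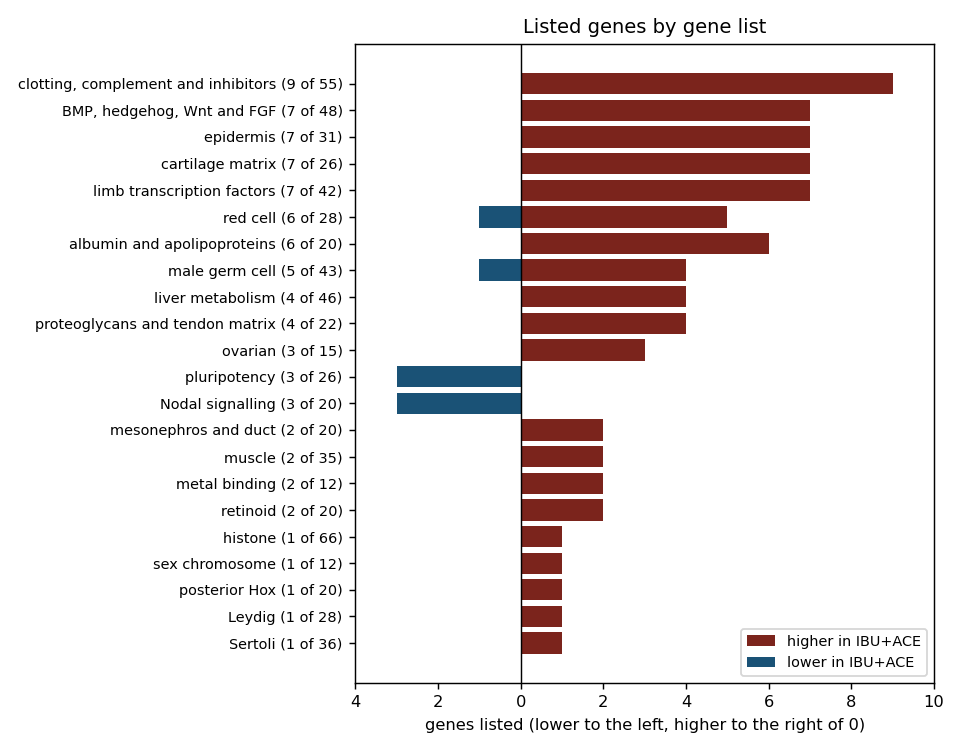
Number of different genes of each gene list that the authors' deposited table lists, lower in IBU+ACE to the left of 0 and higher to the right, with the number listed and the size of the list in brackets. Nodal signalling and pluripotency (3 genes each) are the lists whose listed genes were all lower. The red cell and male germ cell lists have 1 lower gene each, and all others have higher genes only. Over all rows 89.2% were higher.

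The liver lists had the most genes listed, and all of these were higher in IBU+ACE. They are also the longest set of lists. By comparison 19 of 110 limb and body axis genes and 7 of 31 skin genes were listed. Of 133 genes in 4 liver lists 21 were listed, 21 higher and 0 lower, against 89.2% higher over all rows. Their median log2 difference was 2.03 and the range was narrow, from 1.12 to 2.94. Summed over these 21 genes the level was 90.5 FPKM in ACE+ACE and 318 FPKM in IBU+ACE. By role they fall into 6 of 20 carrier proteins of the albumin family and the apolipoproteins, 9 of 55 clotting, complement and protease inhibitor genes, 4 of 46 genes of liver metabolism and 2 of 12 metal-binding genes.

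The serum carriers came first by level. Alb (albumin; chromosome 5, 90460897 to 90476602) had 16.1 FPKM in ACE+ACE and 77.3 FPKM in IBU+ACE, beside 46.4 FPKM for ASP+ACE and 52.6 FPKM for Control. Its relative Afp (alpha-fetoprotein; chromosome 5, 90490737 to 90515931), the main serum protein of the fetus, had 34.2, 113, 67.8 and 130.2 FPKM in that order. ACE+ACE was the lowest library for both genes; Afp was highest in Control and Alb in IBU+ACE. Gc (chromosome 5, 89417522 to 89457899), the vitamin D carrier of the same family, had 0.364 FPKM in ACE+ACE and 1.57 FPKM in IBU+ACE, beside 1.25 FPKM for ASP+ACE and 1.26 FPKM for Control, so that ACE+ACE alone was low. Apoa1, around which high-density lipoprotein particles form, had 5.03, 17.8, 9.199 and 18.3 FPKM. Apob, the scaffold of the low-density particles, had 1.22 FPKM in ACE+ACE and 4.24 FPKM in IBU+ACE, beside 4.68 FPKM for Control. Fabp1, the fatty acid carrier inside hepatocytes, had the largest log2 difference of the liver genes (2.94), with 0.473 FPKM in ACE+ACE and 3.64 FPKM in IBU+ACE.

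The promoters of some of these genes are shown because HNF1, a liver transcription factor, is known to act on the albumin family and fibrinogen genes. The sequences are those of RefSeq on GRCm38.p6, 120 bases that end just before the start site, written 5′ to 3′ on the strand of the gene. Capitals mark the 6 bases GTTAAT, the start of the HNF1 consensus, or their reverse complement.
Alb, chr5:90460750-90460869, plus strand: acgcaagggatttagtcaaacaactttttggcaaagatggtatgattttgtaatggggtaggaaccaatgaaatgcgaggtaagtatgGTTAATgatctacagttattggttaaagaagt
Afp, chr5:90490594-90490713, plus strand: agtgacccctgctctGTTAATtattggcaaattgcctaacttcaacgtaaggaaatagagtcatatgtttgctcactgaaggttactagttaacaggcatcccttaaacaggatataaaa
Gc, chr5:89457899-89458018, minus strand: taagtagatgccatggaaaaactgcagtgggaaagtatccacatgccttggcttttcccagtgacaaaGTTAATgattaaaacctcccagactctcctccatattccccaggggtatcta
Fga, chr3:83026033-83026152, plus strand: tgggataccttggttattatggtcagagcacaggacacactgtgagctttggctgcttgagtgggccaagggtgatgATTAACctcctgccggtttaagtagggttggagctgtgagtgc
Counted from the RefSeq start site, the match begins at -32 in Alb, -105 in Afp, -52 in Gc and -43 in Fga. The deposited loci of Alb, Afp and Fga do not begin at these start sites. That of Fga begins at 83026076, inside the window shown, so its marked bases lie within the deposited locus. Of the 21 liver genes 16 had a promoter in the RefSeq table, and GTTAAT on either strand occurred between 250 bases before and 50 bases after the start in 7 of them (43.8%): Afp, Alb, Fabp1, Fga, Fgb, Gc and Vtn. The share over all 27025 genes with a promoter in that table was 8.24%. Among the 92 named genes with a promoter, liver genes included, it was 11.96% (11 genes). In the limb and body axis lists it was 16.67% (2 of 12 genes). The 4 windows shown all come from genes with a match. These shares describe promoter sequence and do not compare the IBU+ACE and ACE+ACE libraries. The longer HNF1 consensus, which begins with these 6 bases, was searched first and found in 1 of the 16, Gc, and in 0.363% of all genes. GTTAAT was searched after that result was seen, so its share is a description of letters chosen with the outcome known. TATAAA was found in 5 of the 16 (31.2%) and in 15.7% of all. AATNCACA, a Foxh1 motif searched with the first set, was in 0 of the 16, in 4 of the 92 named genes with a promoter and in 4.19% of all; Lefty1 and Lefty2 had no entry. A match does not show that a factor binds there.

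Secreted proteins of clotting, complement and protease inhibition were likewise all higher. The fibrinogen chain genes Fga (chromosome 3, 83026076 to 83033627) and Fgb (chromosome 3, 83040141 to 83049863) are neighbours. Fga had 0.691 FPKM in ACE+ACE and 3.23 FPKM in IBU+ACE, beside 2.35 FPKM for Control, and Fgb had 0.536, 2.195, 1.37 and 1.85 FPKM. Ahsg (fetuin-A), an inhibitor of calcification, had 2.38 FPKM in ACE+ACE and 10.3 FPKM in IBU+ACE, beside 6.096 FPKM for ASP+ACE and 5.902 FPKM for Control, with IBU+ACE the highest. Serpina6, which carries corticosteroids in plasma, had 3.49, 16.3, 8.69 and 12.3 FPKM. Ambp, the precursor of bikunin and alpha-1-microglobulin, had 1.53, 6.695, 4.06 and 5.91 FPKM, and Vtn (vitronectin) had 0.817, 3.46, 2.11 and 2.49 FPKM. For Fgb, Ahsg, Serpina6, Ambp and Vtn alike ACE+ACE was the lowest library, as it was for all 9 liver transcripts with values in the 4 libraries. Serpinf2, the inhibitor of plasmin, had 1.32 FPKM in ACE+ACE and 4.55 FPKM in IBU+ACE, beside 4.81 FPKM for Control, and complement C3 had 0.505, 1.64 and 1.67 FPKM. Both were thus at the Control level in IBU+ACE. Cpb2, a carboxypeptidase that slows clot lysis, had 0.232 FPKM in ACE+ACE and 0.994 FPKM in IBU+ACE.

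The enzymes of liver metabolism were scarce in both libraries. Cps1 (carbamoyl phosphate synthetase of the urea cycle) had 0.134 FPKM in ACE+ACE and 0.428 FPKM in IBU+ACE. Another of the 4 is a 5813 nt locus that carries the symbol Mir122 and does not measure the mature microRNA. The metallothioneins Mt1 and Mt2, small proteins that bind zinc and copper, had 13.9 and 6.42 FPKM in ACE+ACE and 30.1 and 16.6 FPKM in IBU+ACE, beside 29.9 and 16.3 FPKM for Control. For both genes IBU+ACE lay at the Control level.

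Of 28 red cell genes 6 were listed, 5 higher and 1 lower. These are too few to set the list apart from the 89.2% higher over all rows. Slc4a1, the anion exchanger of the red cell membrane, had 7.35 FPKM in ACE+ACE and 14.3 FPKM in IBU+ACE, beside 8.15 FPKM for ASP+ACE and 15.5 FPKM for Control. Both ACE+ACE and ASP+ACE were low for this gene. The erythroid gene Trim10 had 1.82 FPKM in ACE+ACE and 3.81 FPKM in IBU+ACE, and the carbonic anhydrase gene Car2, which is active in many tissues, had 14.9 and 32.2 FPKM. The lower gene was Hbb-y (chromosome 7, 103851745 to 103853240), a globin of primitive red cells from the yolk sac, with 2350.3 FPKM in ACE+ACE and 1557 FPKM in IBU+ACE, beside 1809 FPKM for ASP+ACE and 3012 FPKM for Control. Its log2 difference of -0.59 was the smallest in size in the table, and it went against the other 5 listed genes. Globin genes are related in sequence, and how reads were assigned among them is not stated, so this value carries that uncertainty.

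**Figure D3:**
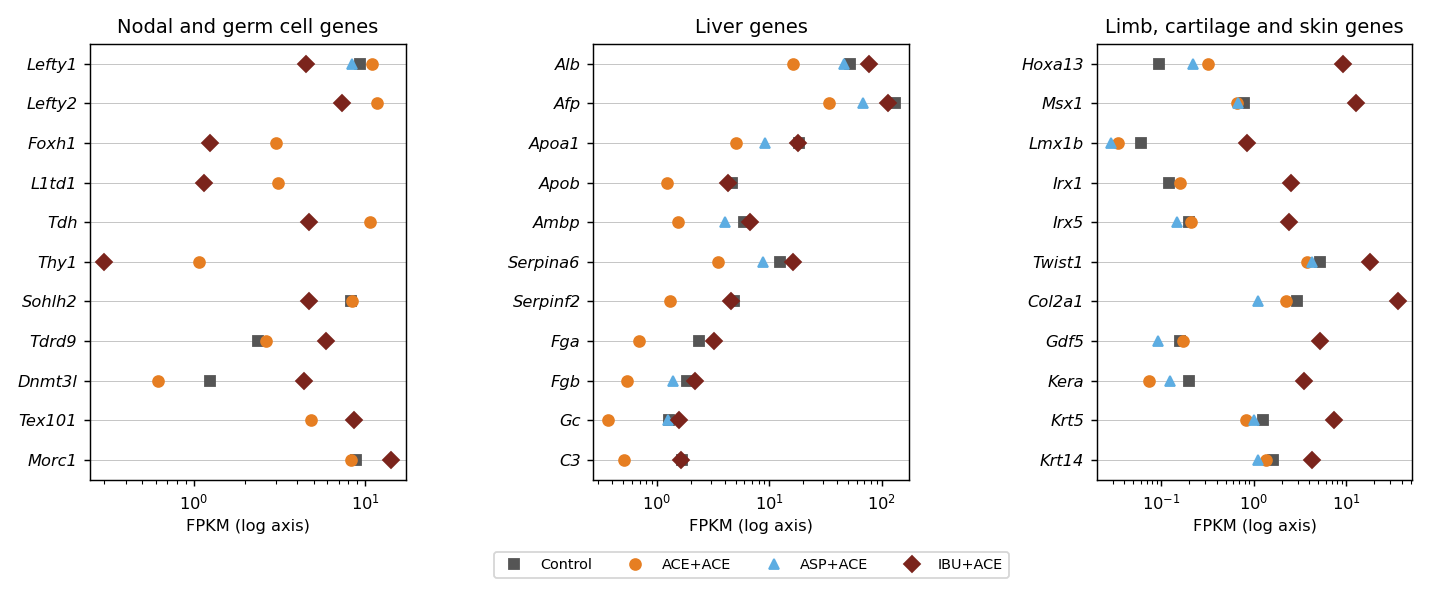
FPKM (log axes) of selected listed genes in the 4 libraries, 1 library per group, shown as a square (Control), circle (ACE+ACE), triangle (ASP+ACE) or diamond (IBU+ACE); a missing symbol means that the value was not read from the tables used here. For the liver genes the circle stands alone at the low end, whereas for the limb, cartilage and skin genes the diamond stands alone at the high end.

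The limb and body axis set joins lists of posterior Hox genes, limb transcription factors, cartilage matrix, and proteoglycans and tendon matrix. Of 110 genes in these 4 lists 19 were listed, all higher, against 89.2% higher over all rows. They were 20 transcripts with a median log2 difference of 2.57 and a range of 0.97 to 5.59. Both ends of that range, Col12a1 and Kera, are on the proteoglycan and tendon matrix list. The summed level of the 19 genes was 32.2 FPKM in ACE+ACE and 153 FPKM in IBU+ACE. Hoxa13 (chromosome 6, 52257694 to 52260880), which patterns the hand, the foot and the genital tubercle, was the 1 listed gene of 20 posterior Hox genes. It had 0.323 FPKM in ACE+ACE and 9.13 FPKM in IBU+ACE, beside 0.224 FPKM for ASP+ACE and 0.0961 FPKM for Control, so 3 libraries were near 0 and 1 was not.

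The transcription factors of limb mesenchyme counted 7 of 42. Msx1 (chromosome 5, 37820485 to 37824583), a target of BMP signalling at the limb tip, had 0.659 FPKM in ACE+ACE and 12.7 FPKM in IBU+ACE, beside 0.676 FPKM for ASP+ACE and 0.788 FPKM for Control. Lmx1b, which makes the limb dorsal, had 0.0339, 0.852, 0.02896 and 0.0611 FPKM. Both were highest in IBU+ACE, although Lmx1b stayed under 1 FPKM there. Twist1, a factor of mesenchyme in head and limb, was the most abundant of the 7, with 3.74, 17.9, 4.302 and 5.196 FPKM. Tbx18 had 0.657, 2.64, 0.529 and 0.789 FPKM, and Irx5 had 0.209, 2.41, 0.147 and 0.1999 FPKM. Irx1 had 0.161 FPKM in ACE+ACE and 2.52 FPKM in IBU+ACE, beside 0.121 FPKM for Control, and Tfap2b had 0.0544 FPKM in ACE+ACE and 0.739 FPKM in IBU+ACE. With Bmp2, Irx1 and Irx5 are also the 3 listed genes of 15 on the ovarian list.

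Cartilage contributed 7 of 26 genes. Col2a1 (chromosome 15, 97975602 to 98004703), the main collagen of cartilage, had 2.25 FPKM in ACE+ACE and 36.3 FPKM in IBU+ACE, beside 1.101 FPKM for ASP+ACE and 2.92 FPKM for Control. The collagens that assemble with it had smaller differences: Col9a1 was listed as 2 transcripts of 1 locus, at 1.54 and 0.932 FPKM in ACE+ACE, 7.83 and 5.73 FPKM in IBU+ACE and 1.07 and 0.691 FPKM in ASP+ACE, with a Control value of 2.05 FPKM for the first. Col11a1 had 5.88, 12.1, 5.31 and 6.04 FPKM, and Col11a2 had 0.172 and 0.980 FPKM. Gdf5, a growth factor of forming joints, had 0.174 FPKM in ACE+ACE and 5.25 FPKM in IBU+ACE, beside 0.0916 FPKM for ASP+ACE and 0.159 FPKM for Control. The matrix protein Matn3 had 0.137, 0.743, 0.0850 and 0.0873 FPKM. Ihh, the hedgehog signal of the growth plate, had 0.266 FPKM in ACE+ACE and 0.924 FPKM in IBU+ACE, with 0.238 FPKM for ASP+ACE. Among proteoglycans and matrix genes of tendon, 4 of 22 were listed. Kera (keratocan) had the largest log2 difference of the table, 5.59, with 0.0734 FPKM in ACE+ACE and 3.53 FPKM in IBU+ACE, beside 0.125 FPKM for ASP+ACE and 0.203 FPKM for Control. Its neighbour Lum (lumican) was abundant in each library with a value, at 9.02 FPKM in ACE+ACE and 18.6 FPKM in IBU+ACE, beside 11.3 FPKM for Control. The fibril-associated collagen gene Col12a1 had 4.74, 9.31 and 5.61 FPKM. The tendon factor Mkx had 1.18 FPKM in ACE+ACE and 2.95 FPKM in IBU+ACE, with 1.36 FPKM for ASP+ACE.

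Skin genes made up 7 of 31, all higher, with a median log2 difference of 2.13. Their summed level was 5.54 FPKM in ACE+ACE and 24.6 FPKM in IBU+ACE. Krt5 (chromosome 15, 101707070 to 101712891), a keratin of basal epidermal cells, had 0.818 FPKM in ACE+ACE and 7.35 FPKM in IBU+ACE, beside 1.003 FPKM for ASP+ACE and 1.27 FPKM for Control. Its partner Krt14 (chromosome 11, 100203162 to 100210542) had 1.35, 4.29, 1.11 and 1.62 FPKM, and Krt15 had 0.507, 2.21, 0.535 and 0.658 FPKM. For these 3 keratins IBU+ACE was the single high library. Perp, a desmosome protein, had 0.749, 5.16, 1.04 and 1.11 FPKM. Krt1, a keratin of differentiated epidermis, had 0.123 FPKM in ACE+ACE and 0.543 FPKM in IBU+ACE, Cldn4 had 0.820 and 2.21 FPKM with 0.825 FPKM for ASP+ACE, and Sfn had 1.17 and 2.81 FPKM with 0.954 FPKM for ASP+ACE.

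Listed signalling genes outside the Nodal pathway were higher. The list of BMP, hedgehog, Wnt and FGF genes, which also holds the chemokine gene Cxcl14, had 7 of 48 listed. All were higher, against 89.2% over all rows, with a median log2 difference of 1.89. Cxcl14 had the largest, 4.85, and no FGF gene was among the 7. Another of them, Ihh, stands in the cartilage list too. The ligand gene Bmp2 had 0.937 FPKM in ACE+ACE and 2.09 FPKM in IBU+ACE, beside 0.897 FPKM for ASP+ACE and 0.979 FPKM for Control, and its secreted inhibitor Nog (noggin) had 0.619, 2.29, 0.598 and 0.519 FPKM. Ligand and inhibitor were thus both highest in IBU+ACE. The Wnt inhibitors Wif1, Dkk2 and Sfrp2 had 0.850, 0.765 and 12.4 FPKM in ACE+ACE and 3.79, 5.02 and 25.5 FPKM in IBU+ACE. Their values for ASP+ACE were 0.812, 0.775 and 13.3 FPKM, and those for Control 1.02, 1.05 and 12.7 FPKM. The chemokine gene Cxcl14 had 0.447 FPKM in ACE+ACE and 12.9 FPKM in IBU+ACE, beside 0.386 FPKM for ASP+ACE and 0.855 FPKM for Control. Of 20 retinoid genes the cellular retinoic acid binding proteins Crabp1 and Crabp2 were listed, with 3.75 and 5.69 FPKM in ACE+ACE and 13.3 and 20.1 FPKM in IBU+ACE, next to 4.13 and 6.65 FPKM for ASP+ACE and 5.03 and 6.98 FPKM for Control.

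Other lists had few members. The embryonic myosin gene Myh3 had 1.85 FPKM in ACE+ACE and 4.54 FPKM in IBU+ACE, beside 2.41 FPKM for ASP+ACE and 4.46 FPKM for Control, and the cardiac actin gene Actc1, whose locus covers 5 annotated genes, had 6.41 FPKM in ACE+ACE and 12.7 FPKM in IBU+ACE, with 7.84 FPKM for ASP+ACE; they were the 2 listed of 35 muscle genes. Of 20 genes of the mesonephros and its ducts 2 were listed, both higher, and the water channel Aqp1 among them had 2.86 FPKM in ACE+ACE and 4.84 FPKM in IBU+ACE. Xist (chromosome X, 103414467 to 103484957), a non-coding RNA of the inactive X chromosome in female cells, had 0.710 FPKM in ACE+ACE and 11.1 FPKM in IBU+ACE, beside 0.668 FPKM for ASP+ACE and 0.954 FPKM for Control. IBU+ACE was the single high library; the deposited locus also spans Tsix and other annotated genes. No Y-linked gene of that list was in the table.

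Beside the Nodal, pluripotency and germ cell differences, then, the IBU+ACE library had the higher summed levels of the listed liver genes (318 against 90.5 FPKM), limb and body axis genes (153 against 32.2 FPKM) and skin genes (24.6 against 5.54 FPKM), and the higher Xist level. Only called genes enter these sums, and all of them were higher, so the direction of each sum was fixed by its members. Afp and Alb, at 113 and 77.3 FPKM in IBU+ACE, made up most of the liver sum. None of the genes behind these sums was at 0 in either library. Some were close to it in ACE+ACE, such as Lmx1b (0.0339 FPKM), Tfap2b (0.0544 FPKM) and Kera (0.0734 FPKM), and their folds are uncertain because depth is unknown. The part of these genes in the other differences was not tested.

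The Control values follow from which Control comparison called a transcript. A value was read for 139 of the 232 transcripts: the authors' deposited tables list 114 of them for IBU+ACE against Control, 27 for ACE+ACE against Control and 8 for ASP+ACE against Control, and a transcript can be in more than 1 table. These tables share the ACE+ACE and IBU+ACE libraries with the pair described here, and a call against Control already requires a difference from it. How near Control lay to either library is therefore fixed in large part by that choice, and the values are a description. All 16 liver transcripts with a Control value were listed for ACE+ACE against Control and 0 for IBU+ACE against Control. Their median log2 difference from Control was -1.77 for ACE+ACE and 0.21 for IBU+ACE. The 15 limb and body axis transcripts and the 4 skin transcripts with a Control value were listed the other way round, all for IBU+ACE against Control and 0 for ACE+ACE against Control. In the limb and body axis lists the medians were -0.26 for ACE+ACE and 3.59 for IBU+ACE. The 106 transcripts with values in all 4 libraries, chosen by the same calls, had IBU+ACE as the highest in 96 and the lowest in 5, and ACE+ACE as the lowest in 50 and the highest in 5.

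A gene name was missing from 70 transcripts, 60 higher and 10 lower. Most were scarce, with medians of 0.0921 FPKM in ACE+ACE and 0.433 FPKM in IBU+ACE. In the GENCODE M21 annotation of GRCm38, 52 lay outside annotated genes, 14 inside introns and 4 over exons. Introns of Zfhx3, a large homeobox transcription factor gene, held 8 of them (chromosome 8, 107946751 to 108421038), all higher in IBU+ACE, 6 listed at 0 in ACE+ACE and none above 0.649 FPKM in IBU+ACE. Introns of Fgf12, a fibroblast growth factor homologue that stays inside the cell, held 3 (chromosome 16, 28513658 to 28752576), all higher too. Lower transcripts lay beyond Kitl, the gene of the ligand that germ cells need for survival. There were 2 (chromosome 10, 100124495 to 100138584), 24079 and 36495 nt from Kitl, with up to 3.40 FPKM in ACE+ACE. The nearer had 1.02 FPKM in ACE+ACE and 0.292 FPKM in IBU+ACE, beside 0.392 FPKM for ASP+ACE. The farther lies in an intron of Gm35533. Whether either belongs to Kitl was not tested. Beyond Dio3, a thyroid hormone deiodinase gene of an imprinted cluster, were 3 more lower transcripts (chromosome 12, 110320043 to 110350324). Loci closer than 100 kb to each other formed 9 runs of 3 or more transcripts, 33 in all, and each run went in 1 direction. Neighbouring fragments may belong to 1 RNA, so they are not independent.

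An exact 0 in 1 library was listed for 32 transcripts, 27 in ACE+ACE and 5 in IBU+ACE, and no fold is given for them. Those listed at 0 in ACE+ACE were short, with a median locus of 506 nt, and reached at most 0.826 FPKM in IBU+ACE. Of these 27, 24 had no gene name. Among the 5 listed at 0 in IBU+ACE, Gm14414 had the highest level, 1.80 FPKM in ACE+ACE and 0.998 FPKM in ASP+ACE, and was listed at 0 in Control as well.

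**Figure D4:**
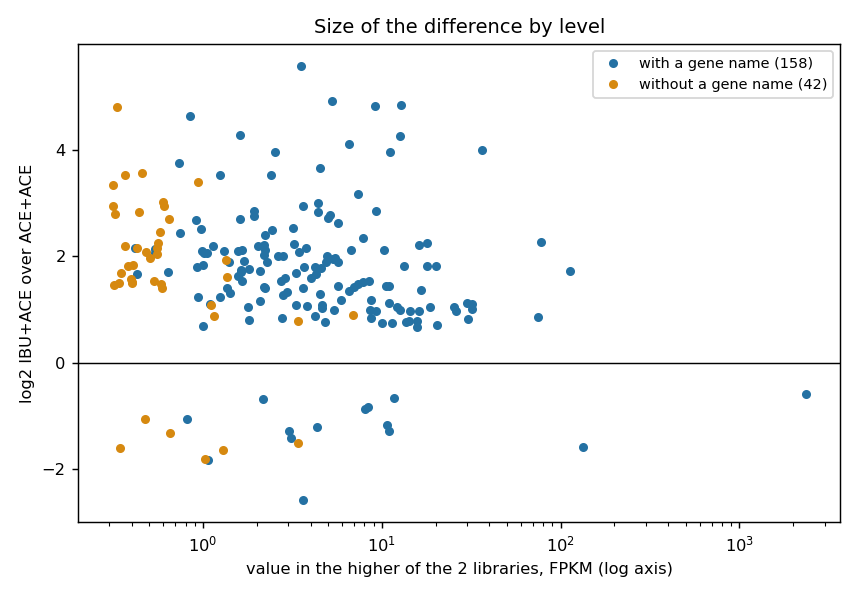
Log2 difference (IBU+ACE over ACE+ACE) against the FPKM of the higher library (log axis) for the 200 transcripts with values above 0 in both, blue with and orange without a gene name. The smallest absolute difference was 1.07 below 1 FPKM and 0.59 at 10 FPKM or more, and most transcripts without a name lie below 1 FPKM.

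The largest differences outside the lists stood at both ends of the table. Gabrp, a GABA receptor subunit of epithelia, had 0.382 FPKM in ACE+ACE and 6.58 FPKM in IBU+ACE, beside 0.324 FPKM for ASP+ACE and 0.724 FPKM for Control. Meox2, a homeobox gene of limb muscle precursors and mesenchyme, had 0.353, 4.49, 0.437 and 0.5004 FPKM. Susd5 had 0.107, 1.24, 0.117 and 0.139 FPKM, and Gm13111, which lies next to Prdm16, had 0.0822, 1.61, 0.106 and 0.103 FPKM. All 4 genes were highest in IBU+ACE. At the other end Gm5611 had 3.64 FPKM in ACE+ACE and 0.602 FPKM in IBU+ACE, beside 3.46 FPKM for ASP+ACE and 2.64 FPKM for Control, the largest fall of the table at a log2 difference of -2.60. The ribosomal protein pseudogene Rps2-ps13 had 134, 44.3, 61.1 and 75.6 FPKM, highest in ACE+ACE and lowest in IBU+ACE, though its reads cannot be told from those of near-identical copies. Ap3b2, a neuronal subunit of the AP-3 adaptor of vesicle transport, was listed as 2 transcripts of 1 locus, at 4.35 and 8.03 FPKM in ACE+ACE and at 1.88 and 4.41 FPKM in IBU+ACE.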

How the data were processed

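RNA of 4 libraries, 1 per group, was sequenced as paired 75 nt reads, per the labels' protocols. Per the submitters' processing notes the tools included Bowtie2 2.2.6, TopHat2 2.1 and Cufflinks 2.2.1, with the genome GRCm38; the sources used here give no settings. The authors deposited values that are read as FPKM from the layout of their tables, since the headers do not name this unit, with log2 fold changes and p-values per the file headers. Decimal commas were read as points and carriage returns as line ends. Columns matched to no library numbered 0, values of 1 library disagreed between tables in 0 cases, and recomputed log2 differences equalled the deposited log2 values within 9.65e-06. The in-file name EtOH was taken as Control, by the names of the tables and as the one library left, although the label gives no treatment. Depth is unknown, so no interval or detection floor is given. Loci are counted from 1 and were compared with GENCODE M21; of the named loci 59 cover 2 or more annotated genes, and whether counting used strand is not stated.

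The members and the 30 gene lists were chosen with earlier results of these data known, so no list is independent evidence. Genes named are the listed members of a gene list (some members are not reported here), up to 12 transcripts per direction with the largest fold (1 FPKM or more in the higher library), and in each direction up to 5 listed at 0 and up to 5 of the highest level. Transcripts named only by position, the introns of Zfhx3 and Fgf12 and the neighbours of Kitl and Dio3 were chosen after their values were seen. Reading and counting were tested on simulated data. Python 3.11.15, pandas 2.3.3, numpy 2.4.6 and matplotlib 3.10.9 were used.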

Additional observations from a re-analysis of the deposited data

How the results depend on the processing

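With no replicates, counts and medians were taken as moved where they changed by more than 1.5 times. Requiring at least 1 FPKM in the higher library left 137 higher transcripts. An absolute log2 difference of at least 1 left 15 lower ones, and a gene name also left 15 lower ones. With 1 FPKM added to both values, 70 higher and 6 lower transcripts kept an absolute log2 difference of at least 1, and the median log2 difference went from 1.70 to 0.81, since most levels are near or below 1 FPKM. Against Control, for the members with that value, the median log2 difference turned to -0.044 for the albumin and apolipoprotein list and to -0.11 for the red cell list. Other list medians moved without a change of sign. Against Control the clotting, complement and inhibitor list went from 2.097 to 0.33 and the proteoglycan and tendon matrix list from 1.18 to 0.73; against ASP+ACE the clotting list was at 0.72, the albumin and apolipoprotein list at 0.73 and the red cell list at 0.62. Adding 1 FPKM took Nodal signalling to -0.84, pluripotency to -0.93, limb transcription factors to 1.496, cartilage to 1.37, epidermis to 1.09, the clotting list to 1.297, liver metabolism to 0.62, BMP, hedgehog, Wnt and FGF genes to 1.03 and the ovarian list to 1.496. Adding 0.1 FPKM moved no list median by more than 1.5 times. No paired analysis was possible because each group is 1 library; for the same reason no library could be left out.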

Other observations

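Several transcripts named after predicted genes lie in loci that also cover developmental regulators, so the symbol hides a coding neighbour; these were chosen after their values were seen. Gm20471 (chromosome 1, 163244447 to 163313744) spans Prrx1, a homeobox gene of limb mesenchyme, and had 0.549 FPKM in ACE+ACE and 3.18 FPKM in IBU+ACE, beside 0.552 FPKM for ASP+ACE and 0.618 FPKM for Control. Gm28309 (chromosome 2, 74673916 to 74697586) spans Hoxd10, Hoxd11 and Hoxd12 and had, in that order of libraries, 0.421, 2.22, 0.385 and 0.373 FPKM. Gm38197 and Gm37024 share 1 locus that spans Mecom, with 0.475 and 0.436 FPKM in ACE+ACE, 2.21 and 2.45 FPKM in IBU+ACE, 0.456 and 0.446 FPKM in ASP+ACE, and 0.460 and 0.485 FPKM in Control. Gm38042, over part of Zfhx3, had 2.28, 4.66, 2.07 and 2.05 FPKM in the same order of libraries. In these values the reads of the coding gene cannot be told apart from those of the predicted gene.

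A further 81 transcripts had a gene name and stood on no list, 74 higher and 7 lower, with a median log2 difference of 1.54. Among them, also chosen after their values were seen, Gas1, a hedgehog co-receptor, had 15.9 FPKM in ACE+ACE and 31.9 FPKM in IBU+ACE, beside 16.2 FPKM for ASP+ACE and 20.03 FPKM for Control. The hedgehog effector Gli3 was listed as 2 transcripts of 1 locus, with 1.54 and 3.82 FPKM in ACE+ACE, 2.76 and 8.69 FPKM in IBU+ACE, and 1.49 and 3.66 FPKM in ASP+ACE; the first had 1.48 FPKM in Control. Osr1 had 1.32, 4.89, 1.49 and 1.45 FPKM, and Ebf1 had 1.22, 4.92, 1.35 and 1.35 FPKM, listed as ACE+ACE, IBU+ACE, ASP+ACE and Control. Tac2, a tachykinin precursor, had 1.27, 9.25, 1.797 and 2.101 FPKM. IBU+ACE was the highest library for each of these genes in the libraries with a value.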
